A study of Rattus norvegicus with 49 samples.

Results

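The cholesterol synthesis genes described here are 8 genes, Hmgcs1, Idi1, Fdps, Fdft1, Sqle, Lss, Cyp51 and Insig1, out of 15154 gene symbols measured on the arrays. They were chosen by name, and 9 probes carried them, 2 for Fdps and 1 for each of the others. Each gene was read through its brightest probe, and every gene was well above background on 48 or 49 of the 49 arrays, so all 8 passed the filter on dim probes. On the GRCr8 build the genes lie on 6 chromosomes: Hmgcs1 at chr2:53379457-53399807, Fdps at chr2:176795192-176804816, Insig1 at chr4:8049339-8057812, Cyp51 at chr4:30991693-31010147, Sqle at chr7:92758175-92773049, Fdft1 at chr15:41588114-41616168, Idi1 at chr17:66539761-66547524 and Lss at chr20:12090641-12118230. The samples were thyroids of single male Sprague Dawley rats, each measured on 1 Agilent array. Injected rats received 131I, the radioactive iodine isotope that the thyroid takes up, either at 5 weeks of age (young) or at 17 weeks (adult). Young rats were given 0.5, 5, 50 or 500 kBq and examined 9 months later at 10 months of age, or 50 kBq and examined 3 or 6 months later at 4 or 7 months of age. Adult rats were given 50 kBq and examined 3, 6 or 9 months later, at 7, 10 or 13 months of age. Untreated controls were 4, 7, 10 or 13 months old. Of these 13 groups 10 had 4 arrays each, and 3 arrays each came from the young rats given 5 kBq, the untreated rats of 7 months and those of 13 months.

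Cholesterol is built from acetyl-CoA through the mevalonate pathway. Hmgcs1 makes HMG-CoA, Idi1 interconverts the activated isoprene units and Fdps joins them to farnesyl diphosphate, from which non-sterol isoprenoids also branch. Fdft1 then makes squalene, Sqle oxidises it, Lss closes the ring to lanosterol and Cyp51 removes a methyl group from it. When sterol is scarce, SCAP carries the transcription factor SREBP2 to the Golgi, where it is cleaved, and it then raises transcription of these enzymes. Insig1 is itself a target of this system and holds the SCAP complex back in the endoplasmic reticulum. Thyroid follicles, fat cells and stratified epithelium all carry this pathway, so a value from whole tissue is a sum over cell types, in which fewer cells of a type and less RNA per cell cannot be told apart.

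On inspection, 3 arrays stood apart from the other 46. In the young 50 kBq group at 3 months, replicate 2 was dim, with 43.1% of spots well above background against 82.5% on the brightest array, and its 75th percentile signal was 61.0 against a median of 2685. Replicate 3 of that group and replicate 2 of the controls of 7 months had little thyrocyte RNA. Thyroglobulin (Tg), the hormone precursor of follicular thyrocytes, was at 0.14 and -0.69 in them on the log2 scale, against 6.41 to 7.91 in the 46 arrays. The mean of the 11 thyrocyte markers stood at -5.68 and -6.34 from the median array on these 2, against -1.26 to 1.17 on the 46. The dim array held Tg at 10.94. In addition, 2 pairs of arrays within a group were closer to each other than any other of the 1176 pairs. Controls of 13 months replicates 1 and 2 differed by a median of 0.153 on the log2 scale over 25191 probes, and adult 50 kBq 6 month replicates 1 and 2 by 0.157. The next closest pair, from different groups, differed by 0.179, and the median over pairs within a group was 0.326. The labels list them as separate samples, and whether they share RNA was not tested. Results that rest on these arrays are given also without the 3 arrays, or with each close pair averaged. Each limma p-value sets a difference against the spread between these arrays within groups, pooled over all groups. An exact permutation p-value uses only the arrays of the groups compared.

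Promoter sequence is shown for Hmgcs1, Fdps, Cyp51 and Idi1, because the pairs among these 4 genes had r from 0.69 to 0.86 over 46 arrays, as described below. Each line holds the 250 bases before the transcript start, read 5′ to 3′ on the gene's strand. They come from RefSeq on the GRCr8 build and lie at chr2:53382054-53382303 on the plus strand for Hmgcs1, whose transcript in the table starts inside the gene, and, for the others in turn, at chr2:176804817-176805066 on the minus strand, chr4:30991443-30991692 on the plus strand and chr17:66547525-66547774 on the minus strand. Capitals mark CCAAT boxes (CCAAT, or ATTGG where the match is on the other strand) and GC boxes (GGGCGG, or CCGCCC on the other strand), short elements at which general factors that act beside SREBP2 are known to bind.
Hmgcs1: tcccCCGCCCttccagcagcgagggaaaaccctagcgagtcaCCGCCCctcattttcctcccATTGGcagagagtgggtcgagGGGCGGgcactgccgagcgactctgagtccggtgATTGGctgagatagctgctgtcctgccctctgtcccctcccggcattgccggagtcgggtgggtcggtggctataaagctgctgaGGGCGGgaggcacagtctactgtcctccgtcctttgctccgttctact
Fdps: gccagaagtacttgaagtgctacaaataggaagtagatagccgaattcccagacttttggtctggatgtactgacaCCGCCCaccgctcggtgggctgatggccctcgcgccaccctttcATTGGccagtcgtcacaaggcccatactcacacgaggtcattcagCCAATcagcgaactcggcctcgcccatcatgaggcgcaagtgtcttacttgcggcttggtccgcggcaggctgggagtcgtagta
Cyp51: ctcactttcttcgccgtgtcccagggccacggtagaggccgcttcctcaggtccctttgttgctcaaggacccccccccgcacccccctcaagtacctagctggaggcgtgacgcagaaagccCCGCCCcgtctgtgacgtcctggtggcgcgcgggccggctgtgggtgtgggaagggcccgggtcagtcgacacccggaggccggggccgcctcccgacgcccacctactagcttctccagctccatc
Idi1: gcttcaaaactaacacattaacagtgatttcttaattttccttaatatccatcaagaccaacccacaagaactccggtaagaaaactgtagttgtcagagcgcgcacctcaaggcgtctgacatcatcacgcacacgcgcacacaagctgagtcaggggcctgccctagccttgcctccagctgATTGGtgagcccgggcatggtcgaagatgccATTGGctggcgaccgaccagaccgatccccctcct
Before the start site, Hmgcs1 held 2 CCAAT boxes, at 188 and 133 bases, and 4 GC boxes at 246, 208, 167 and 48 bases. Fdps held 2 CCAAT boxes, at 130 and 85 bases, and 1 GC box at 174 bases. Cyp51 held 1 GC box at 127 bases and no CCAAT box, while Idi1 held 2 CCAAT boxes, at 66 and 35 bases, and no GC box. The promoter table held 6 of the 8 genes, without Sqle and Fdft1. Over windows of 300 bases, which add 50 bases after the start, a CCAAT box stood in 5 of those 6 and in 37.5% of 33469 promoters. A GC box stood in 5 of 6 and in 33.1%. The letters TCACNCCAC, the core of a sterol regulatory element, searched on both strands like the others, stood in 0 of 6 and in 1.12% of promoters. No other form of this element was searched for, so the 0 of 6 holds for these letters only. The counts and positions are matches of letters and say nothing of binding.

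The plot of all arrays by group shows the levels of each gene in the 13 groups. Levels are log2 processed signals minus the array's 75th percentile. The untreated controls of 13 months lay at an end of the order of group means for 7 of the 8 genes, and for 6 without the 3 arrays that stand apart. They were the lowest group for Hmgcs1 (1.73 ± 0.38, SD, n = 3), Fdps (0.37 ± 0.08) and Fdft1 (0.44 ± 0.11), and the highest for Idi1 (-0.42 ± 0.09), Sqle (2.71 ± 0.04) and Lss (-0.68 ± 0.37), with or without those arrays. Cyp51 was lowest in them over 49 arrays (-1.83 ± 0.26), but without the 3 arrays it was lowest in the controls of 7 months (-2.13 ± 0.22, n = 2). Insig1, the regulator, was highest in the young 50 kBq group at 9 months (1.38 ± 0.54, n = 4). It was lowest in the young 50 kBq group at 3 months (-0.06 ± 0.80, n = 4), of which 2 arrays stand apart, and without them in the controls of 4 months (-0.01 ± 0.53, n = 4).

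Neighbours in the order of 13 means lie close together by construction. Of 12 neighbouring pairs, 12 differed by no more than their pooled SD for Hmgcs1, Idi1, Fdps, Lss, Cyp51 and Insig1, and 11 for Fdft1 and Sqle. Without the 3 arrays the count was 12 for Hmgcs1, Fdft1, Sqle, Lss and Insig1, 11 for Idi1 and Cyp51 and 10 for Fdps. For Fdps the controls of 13 months were then followed by those of 7 months (0.92 ± 0.14, n = 2), a gap of 0.55 that was larger than the spread.

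**Figure D1:**
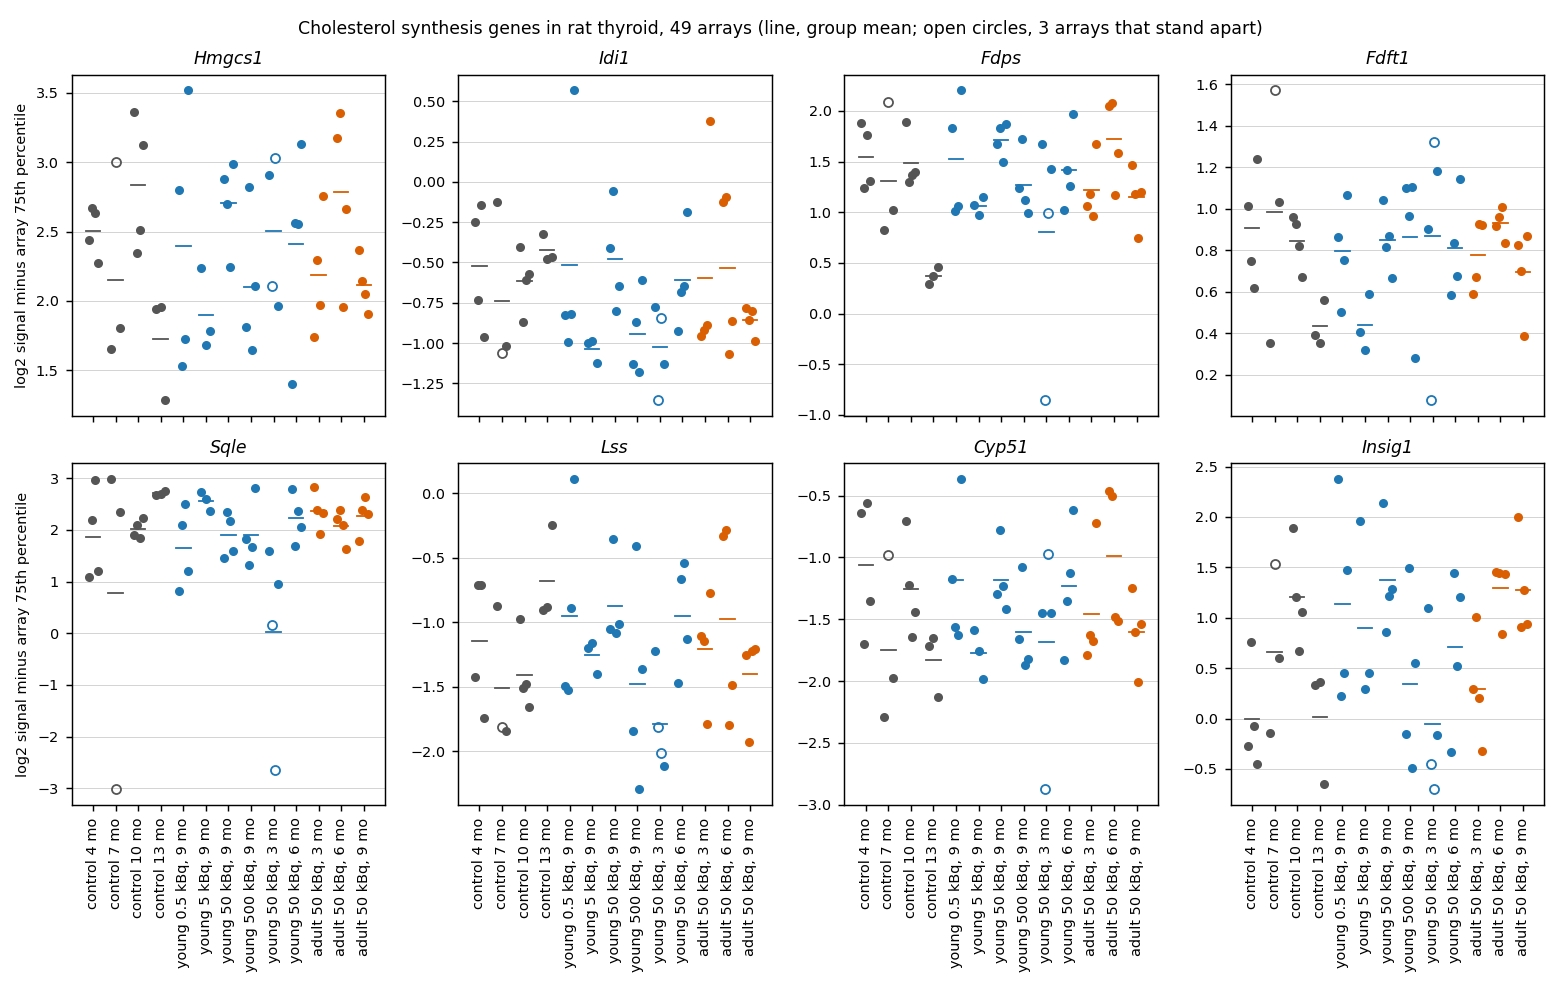
Level of each gene on each of the 49 arrays by group, as log2 signal minus the array's 75th percentile; dots are arrays, lines are group means, and open circles are the 3 arrays that stand apart. The 3 controls of 13 months lie at 0.29 to 0.46 for Fdps, below every other array except the dim one.

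At 9 months after injection of young rats, the question was whether any activity left the pathway changed against controls of 10 months. None of the 8 genes was called at any activity by limma at an adjusted p under 0.01 and a fold change over 1.5. The background was equally thin: of 25297 probes, 0% were called at the lowest and 0% at the highest activity, and 0.0119% were called at 5 kBq, as many as at 50 kBq. At an unadjusted p under 0.05, 1 gene passed, Hmgcs1 at 5 kBq, where 1.82% of all probes did, and at the other activities from 0.929% to 1.62% of probes passed. The 4 activities share the same 4 control arrays, and the limma adjusted p was 1.00 for every gene of the 8 at every activity.

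At 5 kBq, 5 of the 8 genes had exposed and control arrays that did not overlap, which none had at the other 3 activities. Hmgcs1, which feeds the pathway, was at 2.23, 1.68 and 1.79 in the exposed rats and at 3.36, 2.35, 2.51 and 3.12 in the controls. All 3 exposed arrays were below all 4 controls, and the difference was -0.93 ± 0.41 (SE; limma adjusted p = 1.00; exact permutation p = 0.0571, two-sided). Idi1 stood at -1.0, -0.98 and -1.12 against -0.41, -0.87, -0.61 and -0.57, a difference of -0.42 ± 0.31. Fdps was at 1.07, 0.97 and 1.15 against 1.89, 1.29, 1.37 and 1.40, a difference of -0.42 ± 0.37. For both genes the exposed arrays again lay below all controls. Fdft1, the squalene synthase, was at 0.41, 0.32 and 0.59 against 0.96, 0.92, 0.82 and 0.67, a difference of -0.41 ± 0.23 (exact permutation p = 0.0286, the smallest that 3 against 4 arrays allow). Sqle, the next enzyme, went the other way. It was at 2.73, 2.60 and 2.37 in exposed rats and at 1.89, 2.09, 1.85 and 2.24 in controls, a difference of 0.55 ± 0.79 (exact permutation p = 0.0286), with the 3 exposed arrays above all 4 controls.

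So 4 of the 8 genes had non-overlapping groups with lower values, where 6.83% of all probes did, and 1 had non-overlapping groups with higher values, where 8.54% of all probes did. The median difference of the 8 genes was -0.41, against -0.02 over all probes. Cyp51 (-0.52 ± 0.38), Insig1 (-0.31 ± 0.52) and Lss (0.15 ± 0.40) overlapped with the controls. The arrays lay on several slides and scan days. Within scan day 1 the Hmgcs1 difference was -1.26 (1 array against 3) and within scan day 3 -0.72 (1 against 1). For Sqle the difference within scan day 1 was 0.53, within scan day 3 0.52 and within slide 2 0.71 (1 against 1). Other lists of genes moved with this comparison. The 11 thyrocyte markers stood at 0.40 to 0.56 above the median array in exposed rats and at -0.38 to 0.35 in controls, without overlap. The circadian clock list (-0.36 to 0.04 against 0.05 to 0.39) and the brown adipocyte list (-0.97 to -0.16 against -0.13 to 0.59) did not overlap either. Squamous epithelium markers had high levels on 2 of the 4 controls (7.16 and 5.86) and on none of the 5 kBq arrays (-1.20 to 1.29). The part of these lists in the differences was not tested.

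At 0.5 kBq the median of the 8 differences was -0.00 and 4 genes were higher and 4 lower. Lss, the ring-closing enzyme, had the largest difference at 0.46 ± 0.37 and Hmgcs1 followed at -0.44 ± 0.38. Within this group Insig1 had the largest SD (0.99). Idi1 (SD 0.73) was at -0.83, -0.99, -0.82 and 0.57. At 50 kBq the 8 differences ran from -0.13 for Hmgcs1 to 0.53 ± 0.37 for Lss. The exposed and control arrays overlapped for all 8 genes at both activities.

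At 500 kBq, 7 of the 8 genes were lower, with a median of -0.27 against 0.06 over all probes, and all groups overlapped. Insig1 was at -0.16, 1.49, -0.50 and 0.55 against 1.89, 1.21, 0.67 and 1.06 in controls, a difference of -0.86 ± 0.48. Of its exposed arrays, 3 lay below all controls and 1 lay above 3 of them. Hmgcs1 was at 1.82, 2.82, 1.65 and 2.11, a difference of -0.74 ± 0.38. Within scan day 3, the 1 batch with both groups (1 array against 1), Insig1 differed by 0.82 and Hmgcs1 by 0.31, so neither was lower there. In that batch Fdps (0.36), Lss (1.07), Cyp51 (0.57) and Fdft1 (0.15) were higher too, while Sqle (-0.54) and Idi1 (-0.26) were lower. All 7 white adipocyte markers tested were lower at 500 kBq, with a median of -0.84 and list levels of -0.89 to 0.46 against -0.07 to 0.72, and their part was not tested. The slope of the group means on log10 of the activity ran from -0.19 ± 0.15 for Insig1 to 0.06 for Fdft1 per 10-fold step, and 0% of probes were called for it. These differences did not order by activity: the largest shifts of Hmgcs1 were at 5 and 500 kBq, with -0.13 at 50 kBq between them.

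**Figure D2:**
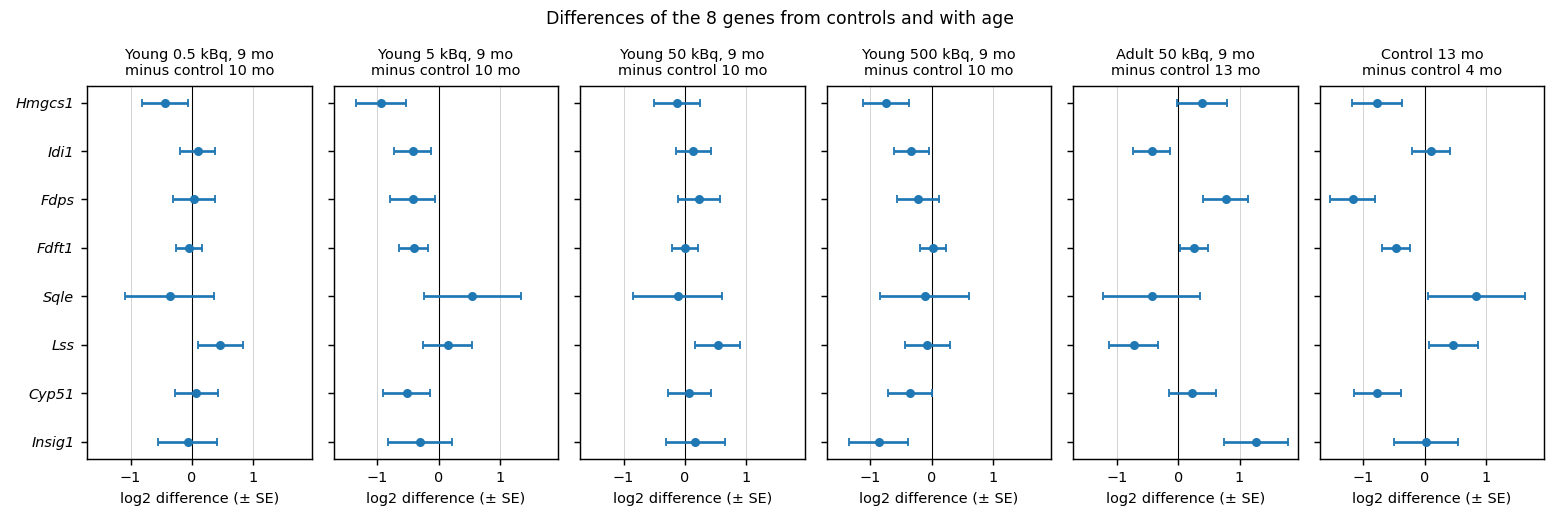
Log2 difference of each gene in 6 comparisons, with bars of 1 SE from the fit of all 49 arrays. Fdps lies farthest from 0 in controls of 13 against 4 months (-1.17), and Insig1 in adult rats 9 months after 50 kBq (1.26).

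At 3 and 6 months after 50 kBq in young rats, and 3 and 6 months after it in adults, no gene of the 8 was called. The background was 0.0158% of probes at 3 months in young rats and 0% in the other 3 comparisons. At an unadjusted p under 0.05, Fdps and Sqle passed at 3 months in young rats, where 37.9% of all probes did, and Sqle at 3 months in adults, where 4.74% did. These rested on the arrays that stand apart. Sqle was at 1.59, 0.17, -2.64 and 0.95 in young rats at 3 months and at 1.10, 2.20, 2.96 and 1.21 in controls of 4 months, a difference of -1.85 ± 0.73. Without the 3 arrays it was -0.59 ± 0.43. In controls of 7 months Sqle was at 2.99, -3.02 and 2.35, so adults at 3 months, at 2.83, 2.39, 1.92 and 2.33, differed by 1.60 ± 0.79, and by -0.30 ± 0.43 without the 3 arrays. The Sqle effect at 3 months in adults minus that in young rats was 3.45 ± 1.07 (limma adjusted p = 0.0640) and 0.30 ± 0.60 without them. Fdps at 3 months in young rats was at 1.68, -0.86, 0.99 and 1.43 against 1.88, 1.24, 1.76 and 1.31, a difference of -0.74 ± 0.34, and of 0.01 ± 0.29 without the 3 arrays, since the lowest value is the dim array.

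At 9 months after 50 kBq in adult rats, against controls of 13 months, no gene of the 8 was called, beside 0.557% of probes. Fdps and Insig1 passed an unadjusted p under 0.05, as did 21.9% of all probes. Insig1 was at 2.00, 0.91, 1.27 and 0.94 in the exposed rats and at 0.33, 0.36 and -0.65 in the controls. All 4 exposed arrays were above all 3 controls, with a difference of 1.26 ± 0.52 (limma adjusted p = 0.140; exact permutation p = 0.0286). Fdps was at 1.46, 1.18, 0.74 and 1.2 against 0.29, 0.37 and 0.46, a difference of 0.78 ± 0.37 (limma adjusted p = 0.207, and 0.0259 without the 3 arrays). Its second probe gave 0.31 ± 0.49.

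The values of Lss, Idi1 and Sqle were lower in the exposed adults. Lss was at -1.25, -1.93, -1.22 and -1.2 against -0.91, -0.88 and -0.25, a difference of -0.72 ± 0.40 (limma adjusted p = 0.288; exact permutation p = 0.0286). Idi1 was at -0.78, -0.85, -0.80 and -0.99 against -0.33, -0.48 and -0.47, a difference of -0.43 ± 0.31 (limma adjusted p = 0.445; exact permutation p = 0.0286). Sqle was at 1.78, 2.39, 2.63 and 2.30 against 2.68, 2.69 and 2.75, a difference of -0.43 ± 0.79 (limma adjusted p = 0.808). The thyrocyte list stood at -0.09 to 0.53 in the exposed adults against 0.75 to 1.17 in the controls, and the skeletal muscle list at -0.14, 0.15, -9.17 and 0.07 against -3.25 to -2.57. Like the thyrocyte list, the brown adipocyte list (-0.20 to 0.53 against -1.95 to -0.22) and the macrophage list (-0.22 to 0.57 against -1.62 to -0.26) did not overlap. Of 7 white adipocyte markers tested, 6 were higher in the exposed adults, with a median of 0.73 and list levels of 0.33 to 0.72 against -1.75 to 0.39. The part of these lists was not tested. The groups did not overlap with higher values for 2 genes, where 9.76% of probes did so, and with lower values for 3, where 16.4% did. These values depend on controls of 13 months, of which 2 are a close pair: with both close pairs averaged, Insig1 was at 1.43 (adjusted p = 0.263) and Fdps at 0.75 (adjusted p = 0.413).

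Over the 9 comparisons of exposed rats with controls, 72 exact tests were made and 5 reached p under 0.05, all at 0.0286. They were Fdft1 and Sqle at 5 kBq and Idi1, Lss and Insig1 in adults at 9 months. A p this small requires groups that do not overlap. Of all probes, 15.4% did not overlap at 5 kBq and 26.1% in adults at 9 months. Direct comparisons of adult with young injection at the same age and activity called none of the 8 genes at 7 months (0% of probes) or 10 months (0.0119%), nor did any pass an unadjusted p under 0.05. The largest was Insig1 at 7 months, at -0.42 ± 0.48. None of the 4 differences between 50 kBq effects was called for any gene of the 8, with 0% of probes called in each. Of those 4, 3 gave an unadjusted p under 0.05 for Lss or Insig1, as 13.3% to 17.5% of all probes did: Lss at 1.17 ± 0.52 for the young effect at 9 against 3 months, Insig1 at 1.63 ± 0.74 for the adult effect at 9 against 3 months, and Lss at -1.25 ± 0.54 for the adult against the young effect at 9 months. The first 2 use groups with arrays that stand apart. Without the 3 arrays the Insig1 difference was 1.20. With single arrays left out, the Lss difference for the young effect ran from 1.00 to 1.37.

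Among untreated rats, Fdps had the smallest adjusted p of the 8 genes with age. In the controls of 13 months Fdps, which makes farnesyl diphosphate, was at 0.29, 0.37 and 0.46. In the controls of 4 months it was at 1.88, 1.24, 1.76 and 1.31, and in those of 10 months at 1.89, 1.29, 1.37 and 1.40. All 3 arrays of 13 months lay below every array of 4 and 10 months. The difference of 13 from 4 months was -1.17 ± 0.37 (limma adjusted p = 0.0242), a lower level by more than the fold threshold but short of the p threshold, so none of the 8 genes was called beside 5.15% of probes. Without the 3 arrays that stand apart, none of which enters this contrast, the shared spread was smaller and Fdps was called (adjusted p = 0.000669), beside 22% of probes. With the close pairs averaged, which leaves 2 controls of 13 months, it was -1.15 (adjusted p = 0.0867), and 0.00557 without the 3 arrays as well. The second Fdps probe gave -0.79 ± 0.49 (adjusted p = 0.262), with 0.45, 0.73 and 0.59 at 13 months against 1.71, 0.95, 1.64 and 1.21 at 4 months, also without overlap.

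The Fdps difference was of like size within scan days, at -1.19 in day 1 (2 arrays against 2) and -1.17 in day 2 (1 against 2). Within slides it was -0.86 on slide 3 (2 against 1) and -0.94 on slide 4 (1 against 1). Scan days and slides use the same 3 controls of 13 months, so these values are not independent. Other tissues in the dissections moved with this comparison. On the 3 controls of 13 months, the skeletal muscle list (Acta1, Ckm and others) stood at -3.25 to -2.57 from the median array and on the controls of 4 months at -0.88 to 0.20. The thyrocyte list stood at 0.75 to 1.17 against -1.26 to 0.77, and the circadian clock list at -0.57 to -0.40 against -0.35 to 0.09. The C cell list stood at 0.58 to 2.75 against -2.37 to -0.23. Squamous markers were high on 3 of the 4 controls of 4 months and on none of 13 months. The part of these lists in the difference was not tested.

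Hmgcs1 (-0.78 ± 0.41) and Fdft1 (-0.47 ± 0.23) also had non-overlapping groups at 13 against 4 months, with lower values. With Fdps, 3 of the 8 genes did so, where 12.8% of all probes did. Cyp51 passed an unadjusted p under 0.05 at -0.77 ± 0.38, with overlap, where 34% of all probes passed. Sqle (0.84 ± 0.79), Lss (0.47 ± 0.40) and Idi1 (0.10 ± 0.31) were higher without being called, and the median of the 8 was -0.22 against 0.19 over all probes. At 7 against 4 months 0.00395% of probes were called and none of the 8 genes. At 10 against 4 months the share was 0.0119%, again without any of them. At an unadjusted p under 0.05, 0 genes of the 8 passed at 7 months (7.62% of probes) and 1, Insig1, at 10 months (3.64% of probes). It was at 1.89, 1.21, 0.67 and 1.06 at 10 months and -0.27, 0.76, -0.07 and -0.45 at 4 months, an overlap on 1 array at each age, with a difference of 1.22 ± 0.48 (limma adjusted p = 1.00, and 0.478 without the 3 arrays). All 7 white adipocyte markers tested were higher at 10 than at 4 months, with a median of 1.31 and list levels of -0.07 to 0.72 against -1.81 to 0.81, and their part was not tested.

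Among the rest of the pathway, 13 further cholesterol synthesis genes were tested, among them Mvk, Pmvk, Mvd, Msmo1, Nsdhl, Hsd17b7, Ebp, Sc5d, Tm7sf2 and Dhcr7, and limma called none in any comparison. At an unadjusted p under 0.05, 2 of 13 passed in controls of 13 against 4 months and 2 in adults at 9 months, where 34% and 21.9% of all probes did, and 0 at each of the 4 activities. At 5 kBq, 10 of 13 were lower, with a median of -0.27 against -0.02 over all probes. Hsd17b7, which acts in the removal of methyl groups after lanosterol, was at -0.65 ± 0.35 there, and Dhcr7, a reductase at the end of the pathway, at -0.56 ± 0.64. At 500 kBq 11 of 13 were lower, with a median of -0.15. Tm7sf2, a sterol reductase, was at 1.17 ± 0.59 in controls of 13 against 4 months and at -0.98 ± 0.59 in adults at 9 months. Those 2 comparisons share the controls of 13 months.

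Of 8 sterol sensing and uptake genes tested, among them Srebf2, Scap, Insig2 and the site proteases Mbtps1 and Mbtps2, limma called none in any comparison. Mbtps1 was at 0.27 ± 0.18 at 5 kBq, and at most 1 gene of the list passed an unadjusted p under 0.05 in any comparison. The medians of this list in the 4 young comparisons at 9 months were 0.02, -0.02, 0.07 and 0.10. Of 10 fatty acid synthesis genes, driven mainly by the related factor SREBP1, limma called none in any comparison, and 2 passed an unadjusted p under 0.05 at 500 kBq (1.62% of all probes) and 7 in controls of 10 against 4 months (3.64% of all probes). All 10 were lower at 0.5 kBq (median -0.33), 5 kBq (median -0.85) and 500 kBq (median -1.15), against which 6 of 10 were higher at 50 kBq (median 0.02). These comparisons share the controls of 10 months, in which all 10 genes were higher than at 4 months (median 1.57). At 500 kBq Elovl6, an elongase, was at -1.92 ± 0.84, Acly, which makes acetyl-CoA, at -1.49 ± 0.61 and Fasn, the fatty acid synthase, at -1.37 ± 0.69. The white adipocyte list varied with them, and its part was not tested.

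Outside sterol synthesis, 1 gene of 6 in other isoprenoid branches was called. Fntb, the beta subunit of the farnesyltransferase that uses the product of Fdps, was higher in controls of 13 than of 4 months by 0.80 ± 0.18 (limma adjusted p = 0.00402). It was lower in adults 9 months after 50 kBq than in controls of 13 months, at -0.93 ± 0.18 (limma adjusted p = 0.00716). The share of all probes called was 5.15% in the first comparison and 0.557% in the second. Both comparisons use the same controls of 13 months, so they are not separate results. With the close pairs averaged, the Fntb differences came to 0.72 (adjusted p = 0.0398) and -0.85 (adjusted p = 0.0849), both no longer called. Without the 3 arrays that stand apart as well, both were called (limma adjusted p = 0.00565 and 0.00360), beside 2562 and 623 probes. Of 9 cholesterol efflux and storage genes limma called none over 49 arrays (4 with an unadjusted p under 0.05 in controls of 13 against 4 months, beside 34% of all probes), and without the 3 arrays that stand apart 3 were, beside 22% of all probes, all higher in controls of 13 against 4 months: Npc2 (1.38), which moves cholesterol out of lysosomes, and the exporters Abcg1 (1.15) and Abca1 (0.87). With the close pairs averaged as well, Npc2 remained called at 1.26 (limma adjusted p = 0.00871), beside the 2562 probes called in that setting. There Abcg1 was at 1.21 (limma adjusted p = 0.0105) and Abca1 at 0.70 (limma adjusted p = 0.0460), both not called.

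Between arrays of the same group the genes varied together, but not as 1 block. After each group's mean was subtracted, Pearson's r was above 0 in 22 of the 28 pairs of genes and above 0.5 in 9, over 49 arrays that share their scaling and hybridisation. Without the 3 arrays it was above 0 in 21 and above 0.5 in 11. Fdps and Cyp51 were the closest pair (r = 0.85, and 0.86 over 46 arrays). Hmgcs1, Idi1, Fdps, Lss and Cyp51 formed a group over the 46 arrays, with r from 0.52 to 0.86. Sqle stood opposite to Fdft1, the enzyme before it (r = -0.61, and -0.68 over 46 arrays), and to Hmgcs1 (r = -0.43 and -0.28).

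**Figure D3:**
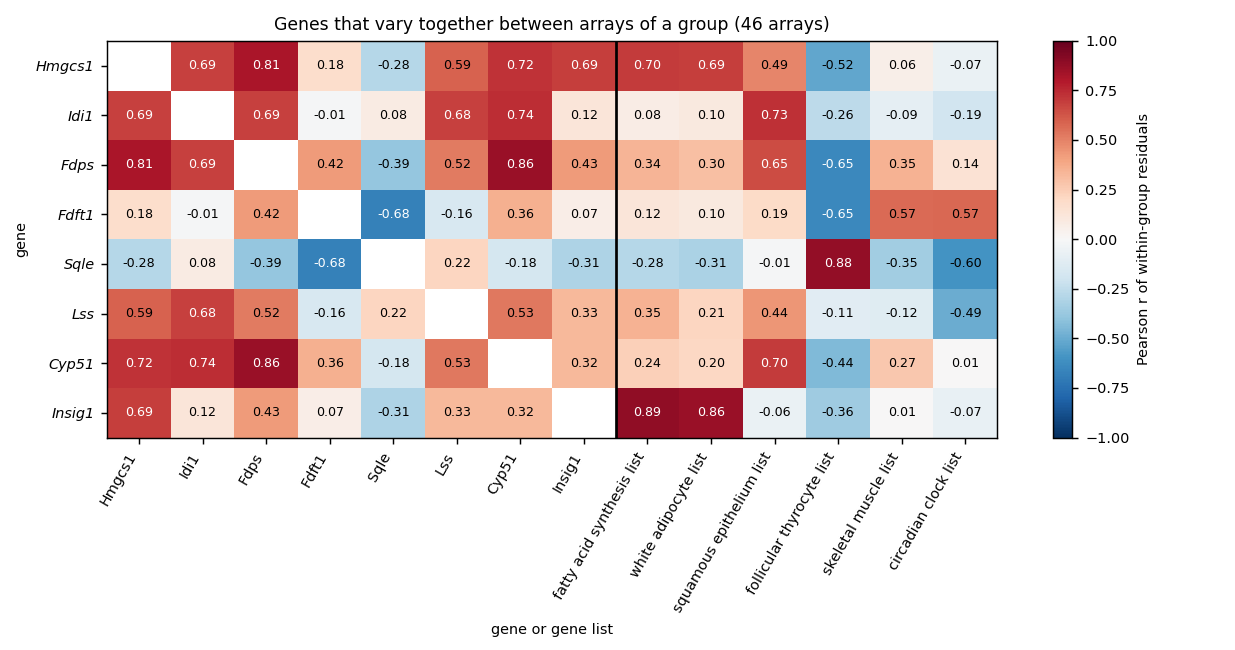
Pearson r of within-group residuals over 46 arrays, between the 8 genes (left of the line) and of each gene with the mean level of 6 gene lists (right of the line). Sqle goes with the thyrocyte list (0.88), Insig1 with the fatty acid synthesis list (0.89), and Idi1 (0.73), Cyp51 (0.70) and Fdps (0.65) with the squamous list.

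Different genes followed different cell type lists. Sqle, squalene epoxidase, followed the 11 thyrocyte markers, with r = 0.93 over 49 arrays and 0.88 over 46. On the 2 arrays nearly lacking thyrocyte markers it was at -2.64 and -3.02, against 0.81 to 2.99 on the 46 arrays. Fdft1 (r = -0.65 over 46 arrays), Fdps (r = -0.65) and Hmgcs1 (r = -0.52) ran against the same markers. Insig1 followed the fatty acid synthesis list (r = 0.89 over 46 arrays) and the white adipocyte list (r = 0.86), and so did Hmgcs1 (r = 0.70 and 0.69). Fat cells make fatty acids, so these lists are not independent.

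The squamous epithelium list, of keratins and other genes of stratified epithelium, split the 46 arrays. It stood at 4.80 to 8.09 above the median array on 13 of them and at -1.41 to 2.17 on the other 33. Cyp51 had a median of -0.70 (range -1.64 to -0.36) on the 13 arrays and of -1.63 (range -2.29 to -1.08) on the 33. For Fdps the medians were 1.83 and 1.17, for Idi1 -0.18 and -0.86, for Hmgcs1 2.70 and 1.97 and for Lss -0.77 and -1.22. The medians of Fdft1 (0.92 and 0.75), Sqle (2.06 and 2.24) and Insig1 (0.86 and 0.76) lay closer together. The 13 arrays were not spread evenly over groups. Controls of 4 months and adults at 6 months held 3 each, controls of 10 months and young 50 kBq at 6 months 2 each, young 0.5 kBq, young 50 kBq at 9 months and adults at 3 months 1 each, and the other 6 groups none. The arrays were split by these markers after their values were seen, so the medians are a description without a test.

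**Figure D4:**
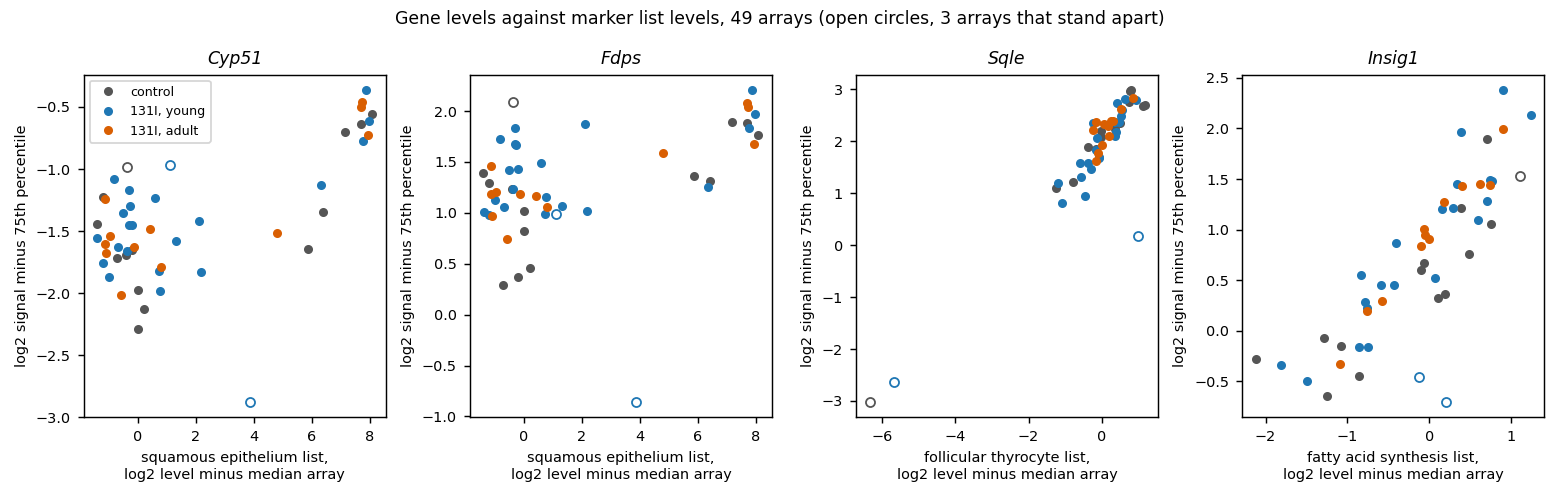
Level of 4 genes (log2 signal minus the array's 75th percentile) against the mean level of a gene list (log2, minus the median array) on each of 49 arrays; colours separate controls, young and adult injected rats, and open circles are the 3 arrays that stand apart. Cyp51 has a median of -0.70 on the 13 arrays high in the squamous list and of -1.63 on the other 33, and Sqle lies at -2.64 and -3.02 on the 2 arrays low in thyrocyte markers.

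The 10 other genes whose residuals were most like the mean residual of the 8, among 13191 genes over 49 arrays, were Tmem79 (r = 0.88), Gpld1 (0.78), Tmem254 (0.78), Tmem86a (0.77), Scpep1 (0.77), Myd88 (0.76), Fabp5 (0.75), Dnajc24 (0.75), Bcl3 (0.75) and Sts (0.75). Over 46 arrays Gpld1 (0.92) and Tmem79 (0.89) led, and Fabp5 (0.84) and Bcl3 (0.82) were also among the 10. Of the further cholesterol synthesis genes, Hsd17b7 (r = 0.81 over 46 arrays), Dhcr7 (0.76) and Msmo1 (0.71), all acting after lanosterol, were among those most like the 8.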

How the data were processed

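Thyroid RNA of single rats was labelled with Cy3 and measured on 49 one-colour Agilent arrays of 62976 spots. The authors deposited a Feature Extraction file per array, whose processed signal is a background-subtracted intensity that was not scaled between arrays, together with marks, in other units (0 or 1), for signals well above background, saturation and outliers. The authors also deposited a table of their own fold changes, which was not used here. The submitters' notes name Partek, whose settings are not stated there.

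Control spots (4259) and outlier spots were left out, signals were taken as log2, each array's 75th percentile was subtracted and spots of a probe were averaged. RefSeq accessions gave 17998 of 30367 probes a symbol. A gene was read through its probe with the highest mean signal. Probes well above background on at least 3 arrays were kept, 25297 in all and 25171 without the 3 arrays that stand apart. limma 3.58.1 in R 4.3.3 fitted 1 mean per group over all 49 arrays, with 2.22 prior degrees of freedom. Calls needed a fold change over 1.5 and, after Benjamini-Hochberg adjustment over all probes of a comparison, an adjusted p under 0.01. Single genes were also compared by two-sided exact permutation tests. List levels are means of each gene's log2 signal minus its median over arrays. The script was tested on simulated data. Figures were drawn with matplotlib. The precision is limited by 3 or 4 arrays per group.

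The labels number the replicates in every group. Same-numbered arrays did not deviate together (279 pairs, correlation from -0.70 to 0.70, median -0.026), so the numbers were not taken as pairs. Alternatives were quantile normalization, percentiles of detected probes, normexp on median spot signals (the files read here hold no mean signals) with an offset of 50, other filters, averaged probes, slide, scan day or replicate number as a block, array weights, an adjusted p under 0.05, each pair of groups alone and each array left out. Leaving out the 3 arrays or the 2 low in thyrocyte markers, averaging the closest pairs and gene-by-gene weights were chosen after seeing the data. The genes and lists were chosen with earlier results of these data known. Named genes were the 8 genes, of each list those called and the 3 with the largest difference in a comparison described, and the 10 genes most like the 8. Some genes of these lists are not reported here by name.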

Additional observations from a re-analysis of the deposited data

Results flagged for a closer look

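In 8 of 80 pairs of a gene and a group of 4 arrays, 1 array lay far from the other 3, with a gap over Dixon's critical value. Independent normal values give about 1 in 20. The 80 pairs share arrays and the genes vary together, so the 8 cannot be weighed against that rate. Idi1 was at 0.57 on young 0.5 kBq replicate 4 (others -0.99 to -0.82), and at 0.38 on adult 3 month replicate 4 (others -0.96 to -0.89). Cyp51 was at -0.72 on the latter array (others -1.79 to -1.63). Fdps was at 1.89 on replicate 1 of the controls of 10 months (others 1.29 to 1.40), and Lss at -0.36 on young 50 kBq 9 month replicate 2 (others -1.08 to -1.02). On these 4 arrays the squamous list stood at 7.16 to 7.93 above the median array, and its part was not tested. Fdft1 was at 0.28 on young 500 kBq replicate 4 (others 0.97 to 1.10), where the skeletal muscle list was at -2.61. Lss was at -1.93 on adult 9 month replicate 2 (others -1.25 to -1.20). Insig1 was at 0.84 on adult 6 month replicate 3 (others 1.43 to 1.45, of which 2 are a close pair).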

How the results depend on the processing

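No gene of the 8 was called in any of the 19 comparisons of the reported fit, and this held under quantile normalization, percentiles of detected probes, normexp, both other filters, averaged probes, slide as a random block and scan day as a block. In controls of 13 against 4 months 1 gene, Fdps, was called with slide as a fixed block, with both kinds of array weights, at an adjusted p under 0.05, without the 3 arrays, and with the closest pairs averaged and the 3 arrays left out. In these settings, in turn, 3248, 9282, 9022, 4472, 5535 and 2562 probes were called. The reported fit called 1302 of 25297 probes there, so these calls do not single out Fdps. Over single arrays left out the count of genes called ranged from 0 to 1, with 1 only without the dim array (limma adjusted p = 0.00239, beside 4028 probes). With slide as a fixed block 23 of 152 uncalled differences changed sign. The Fdps difference ran from -1.28 to -0.98 over all alternatives, with adjusted p from 1.82e-05 to 0.101.

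Array weights, whose estimation stopped before converging, called 3 genes in young rats at 6 months, 2 in adults at 3 months, 1 in adults at 9 months and 4 in controls of 7 against 4 months. Array weights turned Sqle in young rats at 6 months to -0.73, Idi1 in adults at 3 months to -0.62, and Sqle (1.25) and Fdft1 (-0.59) in controls of 7 against 4 months. Gene-by-gene weights called 1 gene in adults at 9 months, beside 7859 probes, and 1 for the adult effect at 9 against 3 months. The cause was not tested. The 5 exact tests under 0.05 became 3 under normexp and 2 with the closest pairs averaged, and 2 to 6 with single arrays left out. Averaging leaves fewer controls of 13 months, so the exact tests in adults at 9 months could not then reach p under 0.05. Without a control of 13 months or an adult of 9 months there were 2, where fewer arrays raise the smallest p.

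With the replicate number as a block, 0 genes were called in all 19 comparisons, and called probes in controls of 13 against 4 months went from 1302 to 788, and in adults at 9 months from 141 to 9. Probe counts in controls of 13 against 4 months ranged from 0 (that pair of groups alone) to 9282 (array weights), with 4 for the closest pairs averaged. With 1 array left out they ranged from 11 (controls of 13 months replicate 1) and 22 (replicate 2) to 4028 (the dim array). In adults at 9 months they ranged from 0 to 8353, and from 0 to 1128 with 1 array left out.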
